A study of Sus scrofa with 6 samples.

Results

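The genes described here are 10 carriers that move amino acids across the plasma membrane, namely SLC1A5, SLC1A4, SLC1A1, SLC7A5, SLC3A2, SLC7A1, SLC7A2, SLC7A8, SLC38A1 and SLC38A2. They were chosen by family and function (SLC1, SLC3, SLC7 and SLC38), by matching pig Ensembl gene identifiers to these symbols. All 10 had a row among the 14262 genes of the deposited expression table. Their RNA was followed in the endometrium, the lining of the uterus, of Erhualian sows, a Chinese pig breed studied for its large litters. The 2 groups were 3 high prolific and 3 low prolific sows, all pregnant and sampled on day 12 of gestation, with 1 sow per library. Below, high 1 to high 3 and low 1 to low 3 name single sows. High 1 and low 3 were of parity 5 (litters borne so far), low 1 and low 2 of parity 7, and high 2 and high 3 of parity 8. Whole endometrium was sequenced, so fewer cells of a type and less RNA per cell cannot be told apart.

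Amino acid carriers supply cells with building blocks for protein and with precursors of nitric oxide, polyamines and glutathione. In pigs around the time of conceptus elongation, the endometrium moves amino acids into the uterine lumen, where arginine, leucine and glutamine reach the free-floating conceptus. The SLC1 carriers studied here take up acidic amino acids or exchange small neutral ones with sodium. SLC7 carriers take up basic amino acids alone, or exchange large neutral ones when bound to the heavy chain SLC3A2. SLC38A1 and SLC38A2 accumulate small neutral amino acids, glutamine among them, together with sodium.

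All levels are normalized expression values as deposited, called normalized read counts here because of their scale. They have no fixed total, and no scaling by gene length is stated. A level is therefore compared between sows and not between genes of different length. The columns summed to between 22663087 and 24270245, and sequencing depth is unknown. Genes of both main compartments of the endometrium were present, with 10 of 12 listed epithelium markers and 9 of 10 stroma markers in the table. Here and below, a listed gene counts as in the table where a row carries its symbol. Of the 14262 rows 2285 matched no symbol, so a listed gene that was not found may still be among them. Low 2 and low 3 stood apart from the other 4 sows on the first principal component of all genes, which held 43.6% of the variance. High 2 had the lowest summed neutrophil markers, 276 against 5958 to 23295 in the other 5 sows.

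None of the 10 transporters differed between high and low prolific sows past the threshold. The comparison used limma, a moderated linear model fitted to log2(value + 1) of all genes, with p-values adjusted by the Benjamini-Hochberg method over all genes and a threshold of 0.05. It called 0 of 10 transporters and 0 of 14262 genes, a background of 0%. An unadjusted p under 0.05 was reached by 2 transporters, both lower in high prolific sows, against 7.92% of all genes (4.09% lower and 3.83% higher). The 2 were SLC1A5 and SLC1A4, which are also the transporters whose groups did not overlap, against 13.5% of all genes (6.32% lower and 7.18% higher). The 2 are 20% of the transporters, above these shares, but 10 genes are too few. The transporters were also chosen with earlier results of these data known, so this share is not read as a result about the family. On the log2 scale 7 of the 10 lay lower and 3 higher in high prolific sows, with a median log2 fold change (high minus low prolific) of -0.14, while 50.4% of all genes lay lower and their median was -0.0024. Without high 2 the split was 5 lower and 5 higher, with a median of -0.02. The median was -0.51 without high 3, -0.08 without low 2, -0.36 without low 3, -0.26 when both were left out, and -0.43 with libraries weighted by their quality.

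**Figure D1:**
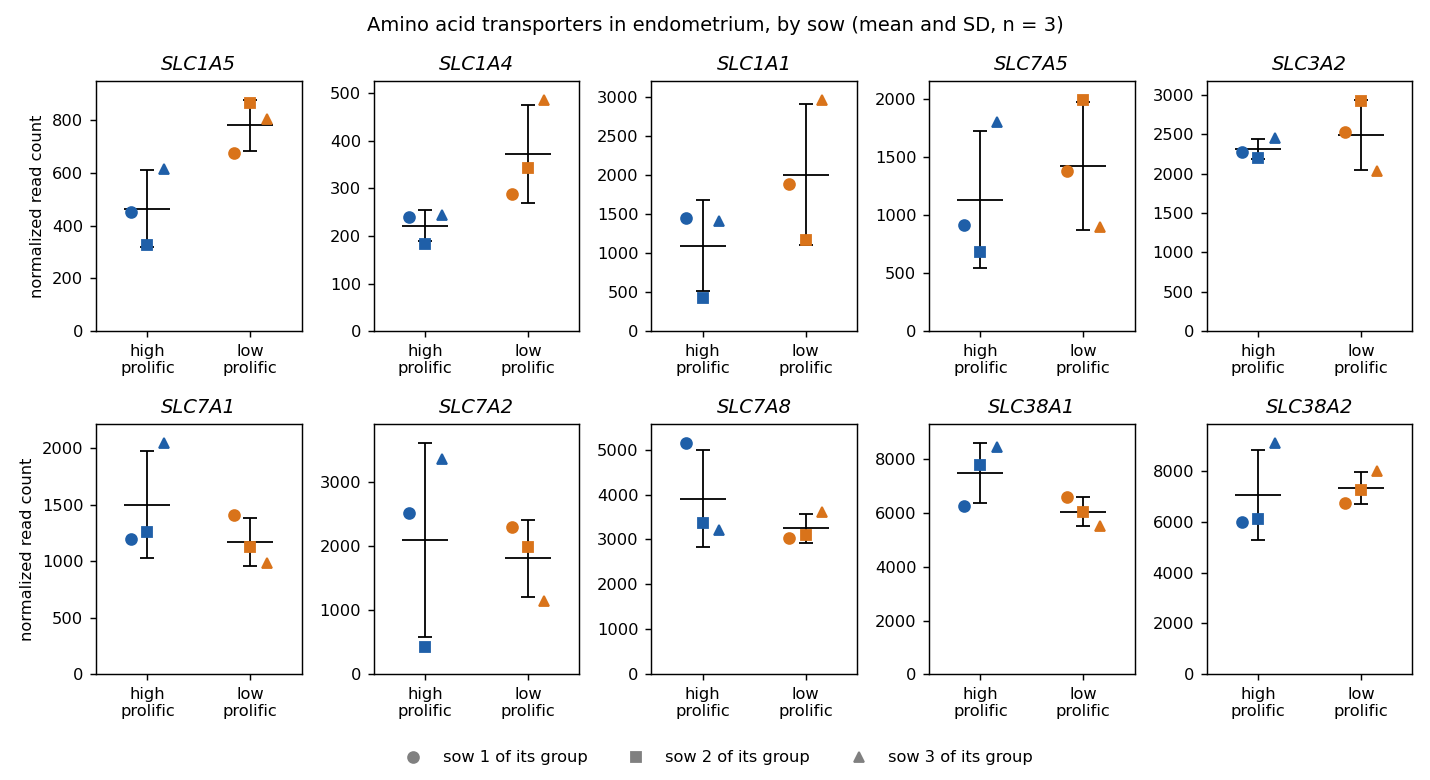
Normalized read counts (linear axes from 0) of the 10 transporters. Points are single sows, blue for high and orange for low prolific, horizontal bars means of 3 sows and error bars SD. In SLC1A5 and SLC1A4 all 3 high prolific sows lie below all 3 low prolific sows, and in the other panels the groups overlap.

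SLC1A5, known as ASCT2, exchanges glutamine and other neutral amino acids across the plasma membrane. It was at 452, 325 and 614 in high 1 to high 3 and at 674, 864 and 803 in low 1 to low 3. All 3 high prolific sows lay below all 3 low prolific sows, with high 3 and low 1 as the neighbours across the gap. SLC1A5 averaged 464 ± 145 against 781 ± 96.9 (SD, n = 3), and the fitted level was 1.73-fold higher in low prolific sows. The log2 fold change was -0.79 ± 0.24 (SE), with a 95% interval from -1.38 to -0.20 (limma, unadjusted p = 0.0165, adjusted p = 0.619). Over 17 alternative settings this value lay between -1.02 and -0.56.

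SLC1A4, known as ASCT1, is the closest relative of SLC1A5 among these carriers and exchanges alanine, serine, cysteine and threonine. It was at 239, 183 and 243 in high 1 to high 3 and at 288, 342 and 487 in low 1 to low 3. Again the groups did not overlap, and high 3, high 1 and high 2 stood in the same order as for SLC1A5. The low prolific sows stood in different orders, since low 2 led for SLC1A5 and low 3 for SLC1A4. SLC1A4 averaged 222 ± 33.4 against 372 ± 103 (SD, n = 3), and was 1.65-fold higher in low prolific sows in the fit. The log2 fold change was -0.72 ± 0.24 (SE), with a 95% interval from -1.29 to -0.15 (limma, unadjusted p = 0.0204, adjusted p = 0.619). Without both low 2 and low 3, which leaves 1 low prolific sow, it was -0.39.

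SLC1A1, known as EAAT3, takes up glutamate, aspartate and cystine-derived cysteine against steep gradients. It was at 1451, 421 and 1412 in high 1 to high 3 and at 1886, 1169 and 2973 in low 1 to low 3. The groups overlapped, because low 2 lay below high 1 and high 3. High 2 had the lowest value and low 3 the highest, a 7.06-fold range that only 3.34% of all genes exceeded. The log2 fold change of -0.97 ± 0.56 (SE) did not pass (limma, adjusted p = 0.676). It was -0.39 without high 2 and -0.64 without low 3.

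SLC7A5, known as LAT1, is the exchanger that brings leucine and other large neutral amino acids into growing cells. Its RNA was at 914, 682 and 1799 in high 1 to high 3 and at 1383, 1996 and 896 in low 1 to low 3. High 3 and low 2 were the highest sows and high 2 the lowest, so that each group held high and low values. The means of 1132 ± 590 and 1425 ± 552 (SD, n = 3) differed by less than the spread within either group. The log2 fold change of -0.38 ± 0.43 (SE, limma, adjusted p = 0.815) was -0.08 without high 2, -0.10 without low 2, -0.78 without high 3, -0.68 without low 3 and -0.68 with library weights.

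SLC3A2, known as 4F2hc or CD98, is the heavy chain that carries SLC7A5 and SLC7A8 to the cell surface. It was at 2280, 2205 and 2457 in high 1 to high 3 and at 2523, 2927 and 2038 in low 1 to low 3. The low prolific sows spanned the whole range of the high prolific ones, and 61.1% of all genes had a wider range over the 6 sows than its 1.44-fold. Its log2 fold change of -0.09 ± 0.15 (SE) had a 95% interval from -0.45 to 0.26 (limma, adjusted p = 0.876). It turned to 0.03 without low 2, was -0.23 without low 3 and -0.18 with library weights, and lay between -0.06 and -0.05 without high 2 and with libraries scaled to 1 column sum.

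SLC7A8, known as LAT2, is another of the light chains of SLC3A2 and exchanges large and small neutral amino acids. It was at 5151, 3361 and 3209 in high 1 to high 3 and at 3024, 3107 and 3613 in low 1 to low 3. High 1 stood above the other 5 sows, which lay close together. Its log2 fold change of 0.24 ± 0.20 (SE, limma, adjusted p = 0.754) was 0.02 without high 1, 0.36 without high 3 and 0.36 with parity as a covariate.

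SLC7A1, known as CAT1, is the main carrier of arginine, lysine and ornithine in most tissues. It was at 1193, 1261 and 2045 in high 1 to high 3 and at 1403, 1128 and 982 in low 1 to low 3. High 3 was the highest sow, and low 1 lay above high 1 and high 2. The log2 fold change was 0.33 ± 0.24 (SE, limma, adjusted p = 0.723), and it was 0.08 without high 3, 0.21 without low 3 and 0.05 when both low 2 and low 3 were left out.

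SLC7A2, known as CAT2, carries the same basic amino acids and is inducible in many cells. It was at 2526, 425 and 3362 in high 1 to high 3 and at 2307, 1987 and 1149 in low 1 to low 3. Both the highest and the lowest sow were high prolific, a 7.92-fold range that 2.84% of all genes exceeded. The mean was higher in high prolific sows, 2104 ± 1513 against 1814 ± 598 (SD, n = 3), while the log2 fold change was below 0, at -0.18 ± 0.78 (SE, limma, adjusted p = 0.960). Its 95% interval ran from -2.07 to 1.70, the widest of the 10. The sign rested on single sows: the value was 0.74 without high 2, 0.02 without low 1, -0.75 without high 3, -0.54 without high 1, -0.48 without low 3 and -0.09 without low 2. It was -0.59 without both low 2 and low 3, -0.79 with library weights and -0.11 with parity as a covariate.

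SLC38A1, known as SNAT1, is a sodium-coupled carrier of glutamine, alanine and serine. It was at 6276, 7794 and 8448 in high 1 to high 3 and at 6619, 6049 and 5516 in low 1 to low 3. High 2 and high 3 lay above all low prolific sows, while high 1 lay below low 1. SLC38A1 averaged 7506 ± 1114 against 6062 ± 552 (SD, n = 3), and the fitted level was 1.23-fold higher in high prolific sows. The log2 fold change of 0.30 ± 0.15 (SE) had a 95% interval from -0.05 to 0.66 (limma, unadjusted p = 0.0841, adjusted p = 0.654), and was 0.17 without both low 2 and low 3.

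SLC38A2, known as SNAT2, shares most substrates with SLC38A1 and is known to be induced when cells lack amino acids. In RefSeq's gene order (assembly Sscrofa11.1) SLC38A1, SLC38A2 and SLC38A4 lie side by side, with 1 unnamed coding gene between the first pair. SLC38A2 was at 5975, 6084 and 9098 in high 1 to high 3 and at 6715, 7262 and 7986 in low 1 to low 3. High 3 was the highest sow and the other 2 high prolific sows were the lowest, so the low prolific sows lay inside the range of the high prolific ones. Its log2 fold change of -0.08 ± 0.19 (SE, limma, adjusted p = 0.927) turned to 0.04 without both low 2 and low 3, to 0.03 without high 1 and to 0.01 without high 2. It was -0.28 without high 3, -0.14 without low 1 and -0.01 without low 3, and lay between -0.05 and -0.03 with quantile normalization and with libraries scaled to 1 column sum.

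**Figure D2:**
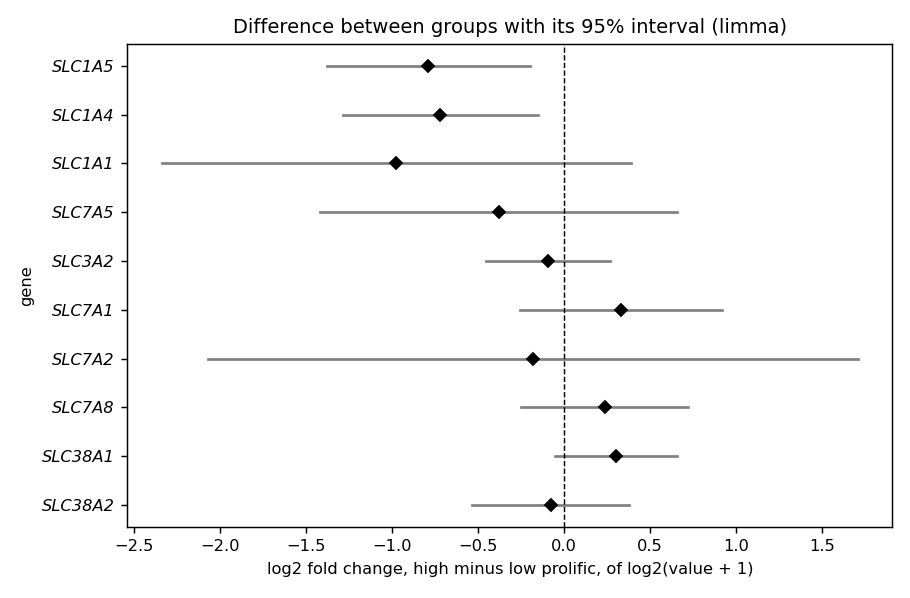
Log2 fold change (high minus low prolific, of log2(value + 1)) of the 10 transporters, as diamonds, with the 95% interval from limma as a line. The intervals of SLC1A5 (-1.38 to -0.20) and SLC1A4 (-1.29 to -0.15) lie below 0 before adjustment over all genes, and those of the other 8 transporters include 0.

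Seen by sow, the transporters did not share 1 order. High 2 was the lowest sow for 5 of the 10 transporters (SLC1A5, SLC1A4, SLC1A1, SLC7A5 and SLC7A2) and the highest for 0. High 3 was the highest for 4 (SLC7A1, SLC7A2, SLC38A1 and SLC38A2) and the lowest for 0, although both sows were high prolific and of parity 8. Low 2 was the highest for 3 transporters, and low 3 the highest for 2 and the lowest for 3. The median of the 10 transporters, each relative to its own mean over the 6 sows, was -0.42 on the log2 scale in high 2 and 0.21 in high 3, and lay between -0.11 and 0.15 in the other 4. The same median over all genes lay between -0.0051 and 0.0022 in all 6 sows. The only pair of sows of equal parity across the groups was high 1 and low 3, both of parity 5, where low 3 had more SLC1A5, SLC1A4, SLC1A1 and SLC38A2 and high 1 more of the other 6. With parity as a covariate the log2 fold changes of SLC1A5 and SLC1A4 were -0.78 and -0.63.

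**Figure D3:**
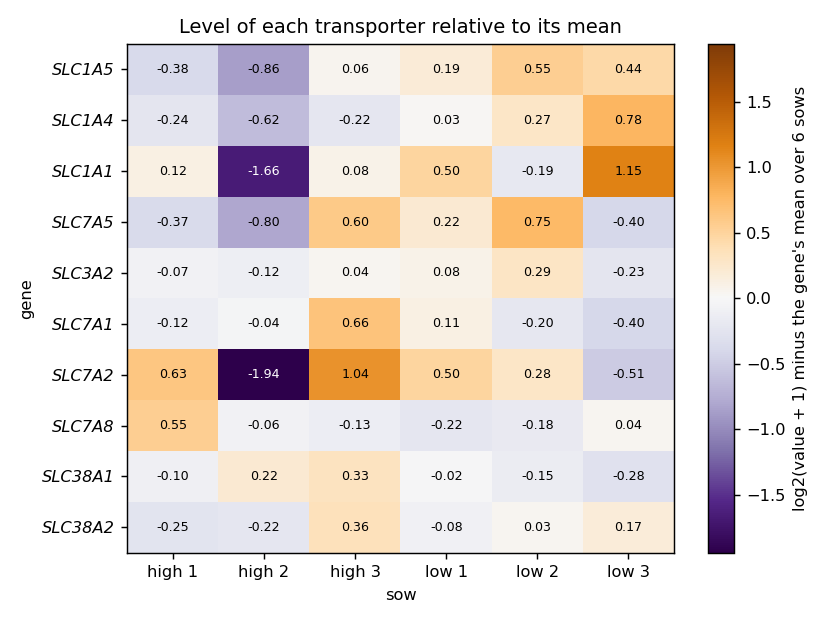
Log2(value + 1) of each transporter minus its mean over the 6 sows (colour and printed value), with genes as rows and sows as columns. High 2 is darkest for SLC7A2 (-1.94) and SLC1A1 (-1.66), and the SLC1A5 and SLC1A4 rows change from negative or near 0 in the high prolific sows to positive in the low prolific sows.

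Related carriers were also set against each other within each sow, to ask whether the balance between them differed between the groups. For 6 such log2 ratios a two-sided exact permutation test was run. With 20 ways to divide the sows 3 against 3 the smallest p it allows is 0.1. That lies above the threshold, so no ratio could pass whatever its values. The test therefore cannot decide whether the balance differed. The ratio of SLC7A5 to its heavy chain SLC3A2 was -1.32, -1.69 and -0.45 in high 1 to high 3 and -0.87, -0.55 and -1.19 in low 1 to low 3. High 3 had the highest of these ratios and high 2 the lowest, and the mean difference of -0.28 had an exact permutation p of 0.5 (0.75 adjusted over the 6 ratios). That difference was -0.02 without high 2, -0.13 without low 2, -0.44 without low 3 and -0.64 without high 3. For SLC7A8 to SLC3A2 the difference was 0.33 (exact permutation p = 0.4, adjusted 0.75), with high 1 at 1.18 and low 3 at 0.83 above the other 4 sows, which lay between 0.086 and 0.61. It was 0.11 without high 1, 0.18 without low 2, 0.50 without high 3 and 0.55 without low 3. SLC7A5 relative to SLC7A8 differed by -0.62 (exact permutation p = 0.4, adjusted 0.75), and its groups overlapped widely. This difference was -0.31 without high 1 or without low 2, -0.40 without high 2, -0.99 without low 3 and -1.14 without high 3.

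SLC38A1 relative to SLC38A2 was at 0.071, 0.36 and -0.11 in high 1 to high 3 and at -0.021, -0.26 and -0.53 in low 1 to low 3. High 1 and high 2 lay above all low prolific sows and high 3 did not. The difference of 0.38 had an exact permutation p of 0.2 (adjusted 0.75), and was 0.25 without high 2 or without low 3. SLC1A5 relative to SLC1A4 differed by -0.07 (exact permutation p = 0.9, adjusted 0.9), with group means of 1.02 ± 0.27 and 1.09 ± 0.33 (SD, n = 3). SLC7A1 relative to SLC7A2 was at 1.57 in high 2 and between -1.08 and -0.23 in the other 5 sows, a difference of 0.51 (exact permutation p = 0.8, adjusted 0.9) that was -0.31 without high 2.

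**Figure D4:**
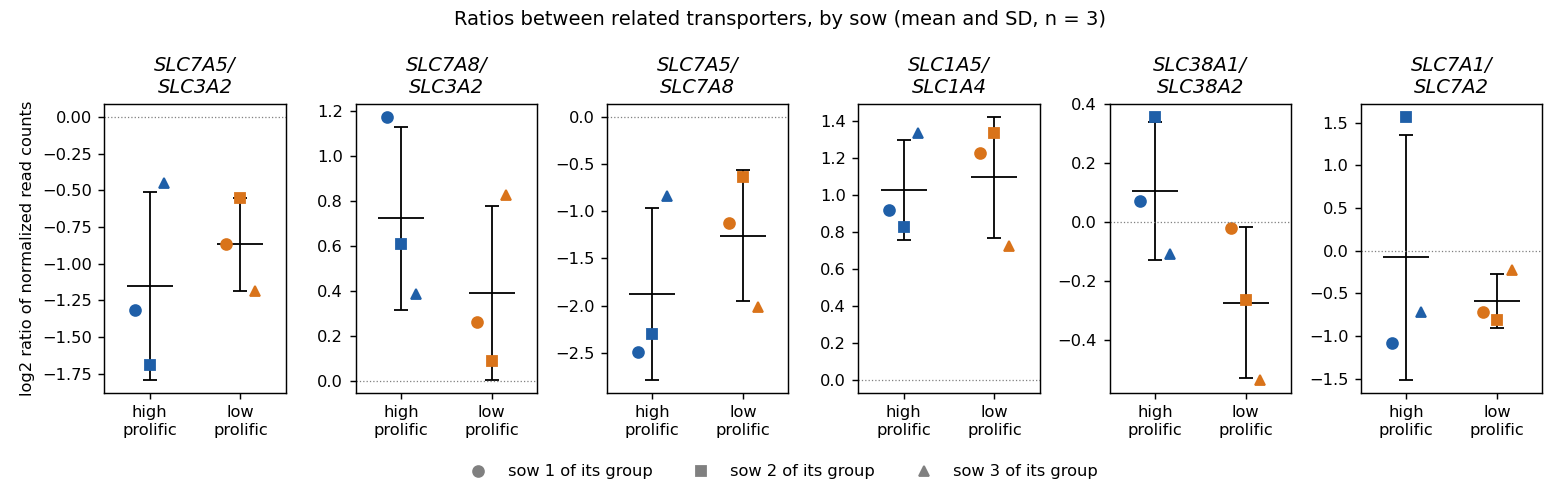
Log2 ratio of normalized read counts between related transporters, each panel with its own axis. Points are single sows, blue for high and orange for low prolific, horizontal bars means of 3 sows, error bars SD and dotted lines equal counts. The groups overlap in all 6 panels, and SLC38A1 to SLC38A2 has the smallest exact permutation p (0.2).

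Markers of other cell types were read beside SLC1A5 and SLC1A4, the transporters without overlap. The summed neutrophil markers (4 of 7 listed genes in the table) also did not overlap, at 276 to 9139 in high and 11666 to 23295 in low prolific sows. Each of the 4 genes overlapped on its own. S100A8 was at 713, 2.22 and 113 in high 1 to high 3 and at 85.2, 5414 and 10857 in low 1 to low 3, and S100A12 at 582, 3.97 and 170 against 169, 7533 and 5283. In both genes low 1 lay below high 1, and its sum of 11666 was mostly MMP8, at 11244. CSF3R went the other way, with means of 213 in high and 137 in low prolific sows. T and NK cell markers (7 of 8) summed to 813 to 1163 in high and 759 to 808 in low prolific sows. Of these 7 genes CD2 alone did not overlap (14.3%, against 7.18% of all genes), and GNLY and PRF1 lay lower on average in high prolific sows. The 2 of 8 trophoblast genes in the table, ELF5 and TFAP2C, summed to 58.6 to 72.4 against 78.7 to 143. ELF5 did not overlap (50%, against 6.32% of all genes), at 41.6, 42.4 and 39.1 against 116, 60.6 and 43.5, while TFAP2C overlapped. The summed epithelium markers overlapped, at 73269 to 76479 against 60806 to 85828. Within that list the cadherin CDH1 (18895, 15318 and 17948 against 22226, 26177 and 19927) and the claudin CLDN4 (7148, 5140 and 7787 against 8175, 14154 and 9094) lay lower in all 3 high prolific sows. That is 20% of the 10 in the table, against 6.32% of all genes. The keratins KRT7, KRT8 and KRT18 lay higher on average. Among the smooth muscle markers (5 of 6 in the table), 4 lay lower in all 3 high prolific sows, which is 80% of them against 6.32% of all genes. These were ACTA2 (4881, 2732 and 4779 against 6676, 10018 and 7297), ACTG2 (476, 118 and 317 against 727, 1882 and 947), DES and CNN1. In each of the 4, high 2 was the lowest sow, as it was for SLC1A5, SLC1A4, CDH1, CLDN4, PECAM1 and LUM. High 3 was the lowest for ELF5 and the stroma marker PDGFRB. Where all 3 high prolific sows lie below the low prolific ones, the lowest sow is high prolific in any case. No link is read from this match. The abundant MYH11 lay higher on average, with overlap, and the sum of the list overlapped, at 17891 to 25185 in high and 17489 to 27207 in low prolific sows. Of 6 endothelium markers in the table all 6 lay lower on average. PECAM1 alone did not overlap (16.7%, against 6.32% of all genes), at 3201, 2356 and 2663 against 4211, 4834 and 6353. Stroma markers summed to 508208 to 693143 in high and 601455 to 813610 in low prolific sows, with 8 of the 9 lower on the log2 scale. LUM and PDGFRB, 2 of the 9 (22.2%), lay lower without overlap, against 6.32% of all genes. The summed macrophage, B and plasma cell and erythrocyte markers overlapped, as did each of their genes. The part of any of these cell types in the transporter levels was not tested.

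The genes most like SLC1A5 over the 6 sows were SFRP5, a secreted WNT antagonist, TMEM86A and SPNS2, an exporter of sphingosine-1-phosphate. Likeness was the root mean square difference of log2(value + 1), centred on each gene's mean, over 6 libraries and 11977 genes with a symbol. These differences were 0.071 for SFRP5, 0.12 for TMEM86A and 0.12 for SPNS2. For SLC1A4 they were 0.073 for MFRP, 0.086 for PCDH17, a protocadherin, and 0.094 for MLKL, the executor of necroptosis.

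Of 40 other listed carriers of amino acids and peptides, 24 were in the table. There were 12 higher and 12 lower in high prolific sows, with a median log2 fold change of -0.01. None passed (limma, smallest adjusted p = 0.619). An unadjusted p under 0.05 was reached by 2 of 24 (8.33%), against 7.92% of all genes, and groups did not overlap in 4 of 24 (16.7%), against 13.5%. SLC6A9, the glycine transporter GLYT1, was at 746, 962 and 699 in high 1 to high 3 and at 484, 184 and 274 in low 1 to low 3. All high prolific sows lay above all low prolific ones, and the fitted level was 2.73-fold higher in high prolific sows. The log2 fold change was 1.45 ± 0.35 (SE), and 0.71 without both low 2 and low 3. SLC38A5, a glutamine and histidine carrier of the SLC38 family, lay lower, at 167, 160 and 146 against 194, 222 and 209 (log2 fold change -0.40). SLC7A7, the y+LAT1 light chain that exports basic amino acids with SLC3A2, was at 209 ± 13.1 against 278 ± 47.1 (SD, n = 3). Its log2 fold change was -0.40, or -0.16 when both low 2 and low 3 were left out. SLC15A1, the peptide transporter PEPT1, reached 1639 in low 2 and 1555 in low 3, whereas the other 4 sows lay between 30.4 and 243. Leaving out both of those sows took its log2 fold change from -3.08 to -0.09.

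The amino acid response is the program by which the kinase GCN2 and the factor ATF4 raise transporters and biosynthetic enzymes when amino acids run short. Of its 26 listed genes, ATF4 and DDIT3 had no row under their symbol and are not analysed here. Whether they are among the rows without a symbol is unknown. The other 24 were in the table. Of these 18 lay lower and 6 higher in high prolific sows (median log2 fold change -0.18), a split of 12 and 12 (median 0.01) without both low 2 and low 3, and none passed (limma, smallest adjusted p = 0.619). An unadjusted p under 0.05 was reached by 6 of 24 (25%), 4 higher and 2 lower, against 7.92% of all genes. Groups did not overlap in 4 (16.7%), all 4 higher, against 13.5% of all genes (7.18% higher). The median was -0.29 without high 1, -0.11 without high 2 and -0.30 without low 1. The serine synthesis enzymes PHGDH (9663, 10689 and 10978 against 5151, 8423 and 7696) and PSPH (21177, 16683 and 16505 against 14492, 8119 and 11881) lay higher in all 3 high prolific sows. SESN2, a leucine sensor that restrains mTORC1, did as well (1116, 1387 and 1230 against 964, 831 and 708). ASNS, asparagine synthetase, was at 286, 201 and 241 in high 1 to high 3 and at 283, 525 and 466 in low 1 to low 3, with low 1 just below high 1. When both low 2 and low 3 were left out, the log2 fold change of PHGDH went from 0.59 to 1.02, of PSPH from 0.69 to 0.31, of SESN2 from 0.58 to 0.36 and of ASNS from -0.77 to -0.23. That of PHGDH was 0.37 without low 1 and that of PSPH 0.46 without low 2.

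mTORC1 is the kinase complex that senses imported leucine and arginine and drives translation. Of 40 listed subunits, sensors and targets 35 were in the table, 17 higher and 18 lower, and none passed (limma, smallest adjusted p = 0.619). An unadjusted p under 0.05 was reached by 2 of 35 (5.71%), and groups did not overlap in 4 (11.4%), against 7.92% and 13.5% of all genes. With libraries scaled to 1 column sum, which moved the share of all genes lying higher from 49.6% to 57.3%, 24 were higher and 11 lower, and with quantile normalization 21 were higher. WDR59, a subunit of the GATOR2 complex, was at 1265, 1363 and 945 in high 1 to high 3 and at 780, 728 and 691 in low 1 to low 3, 1.61-fold higher in high prolific sows. EIF4EBP1, the translation repressor that mTORC1 inactivates, was at 371, 229 and 296 against 374, 743 and 624. The gap between high 1 and low 1 was narrow, and the log2 fold change of -0.93 was -0.35 without both low 2 and low 3. RRAGB, a Rag GTPase, was at 718 ± 64.0 against 614 ± 58.2, and SESN3 at 1821 ± 214 against 2594 ± 1076 (SD, n = 3), both with overlap. MTOR itself was at 2113 ± 119 against 2188 ± 203 (SD, n = 3).

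Enzymes that use imported arginine to make nitric oxide and polyamines were in the table for 22 of 29 listed genes, 9 higher and 13 lower (median log2 fold change -0.11, and 0.06 without low 2), and none passed (limma, smallest adjusted p = 0.619). An unadjusted p under 0.05 was reached by 4 of 22 (18.2%), against 7.92% of all genes. Groups did not overlap in 6 (27.3%), 2 higher and 4 lower, against 13.5% of all genes (7.18% higher and 6.32% lower). These counts were not tested, and nothing particular to the list is read from them. NOS3, the endothelial nitric oxide synthase, was at 293, 315 and 385 in high 1 to high 3 and at 456, 489 and 583 in low 1 to low 3, beside PECAM1, given above, and endothelium markers (6 of 8 in the table) that summed to 8984 to 14042 in high and 11817 to 21986 in low prolific sows. Their part in the NOS3 values was not tested. PAOX, a polyamine oxidase, was at 284 ± 19.8 against 383 ± 38.7 (SD, n = 3). The row that the identifier table names NOS1 was at 19352, 16168 and 12827 against 12665, 3392 and 6088, with high 3 just above low 1. Whether these reads come from the neuronal nitric oxide synthase rests on that table alone and could not be checked here. AZIN1, which protects ornithine decarboxylase from its antizyme, was at 3550 ± 303 against 2892 ± 306 (SD, n = 3). When both low 2 and low 3 were left out, the log2 fold change of NOS1 went from 1.31 to 0.33, of PAOX from -0.42 to -0.25 and of AZIN1 from 0.30 to 0.13, and NOS1 was at 0.86 without low 2.

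Enzymes of glutamine, glutamate and the branched-chain amino acids were in the table for 21 of 24 listed genes, 12 higher and 9 lower (median log2 fold change 0.06). None passed (limma, smallest adjusted p = 0.619). An unadjusted p under 0.05 was reached by 5 of 21 (23.8%), against 7.92% of all genes. Groups did not overlap in 5 (23.8%), all 5 higher in high prolific sows, against 13.5% of all genes (7.18% higher). Nothing particular to the list is read from these counts, which were not tested. Among these were IVD, isovaleryl-CoA dehydrogenase of leucine breakdown (2896, 3143 and 2734 against 2266, 2197 and 2415), and BCKDHA, a subunit of the branched-chain ketoacid dehydrogenase (1589, 1892 and 1893 against 1434, 1388 and 1575). PPAT, which uses glutamine in the first step of purine synthesis, was at 154, 217 and 173 against 120, 98.0 and 139. CAD, which starts pyrimidine synthesis from glutamine, lay lower, at 3488 ± 849 against 5249 ± 1080 (SD, n = 3), with high 1 above low 1. Its log2 fold change went from -0.60 to -0.24 when both low 2 and low 3 were left out.

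**Figure D5:**
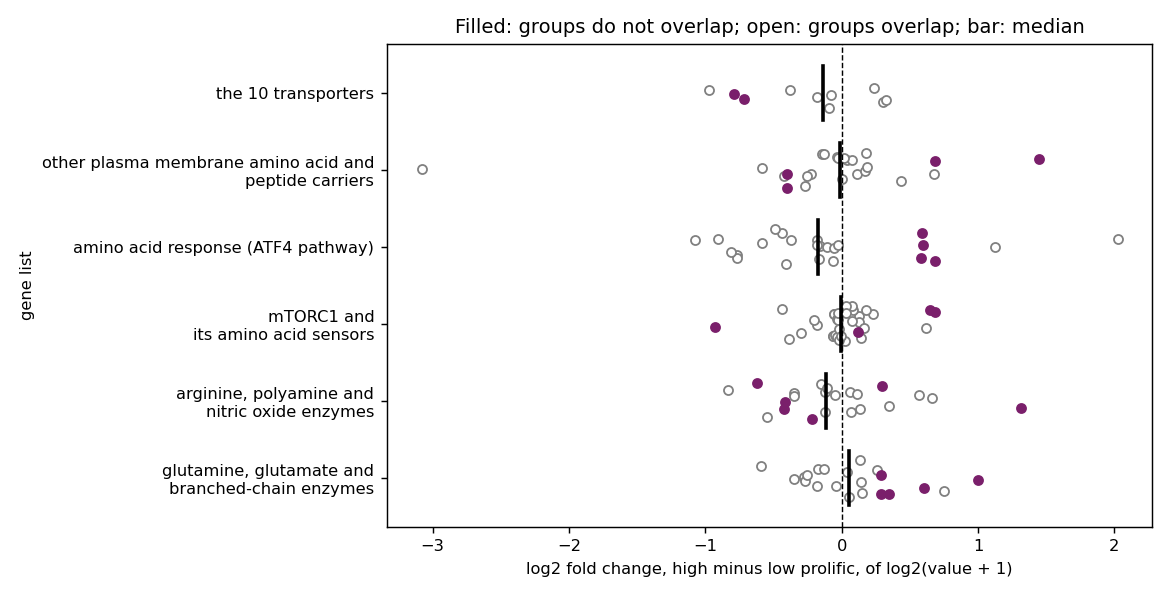
Log2 fold change (high minus low prolific, of log2(value + 1)) of the 10 transporters and of the measured genes of 5 related lists. Each point is 1 gene, filled where the groups do not overlap and open where they do, and vertical bars are medians. SLC1A5 and SLC1A4 are the filled points of the top row (-0.79 and -0.72), and the medians of all lists lie between -0.18 and 0.06.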

How the data were processed

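RNA of 6 endometrium samples, 1 per sow, had been extracted with Trizol and sequenced on Illumina libraries, per the labels. The authors deposited 1 table of values that its label calls normalized expression, signal values that are not whole and never negative, and that were read as normalized read counts from their scale. The submitters' processing notes name Subread 1.6, featureCounts and edgeR without their roles. Normalization, genome build, annotation and strand setting are not given in the sources used here. Coordinates are therefore left out, and overlapping or near-identical genes are uncertain. Depending on the library, 40.6% to 100% of values below 20 came within 0.1 of a multiple of the best-fitting step. Whole reads were thus not recovered, no count test was run, and no counting interval is given. All 14262 genes reached 10 in at least 3 libraries (0 did not), so the table holds no gene below that level. Symbols came from a table of Ensembl identifiers (11977 matched, 2285 did not).

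High and low prolific sows were compared on log2(value + 1) by limma 3.58.1 (R 4.3.3) with trended, robustly moderated variances. Benjamini-Hochberg adjustment of the two-sided p-values ran over all genes, at a threshold of 0.05. Folds are 2 to the power of the log2 fold change, which the pseudocount of 1 understates for low genes. Log2 ratios between transporters were compared by an exact permutation test. Named genes were the 10 transporters, the 4 genes of smallest unadjusted p in each related list, and the 3 most like each of the 2 transporters of smallest p. Other genes named were chosen after their values were seen. The transporters and lists were chosen with earlier results of these data known. No set test was run. Alternatives were other pseudocounts (0.5 and 10), a mean of at least 200, other scalings and moderation, library weights, parity as a covariate, a replicate block and leaving out libraries.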

Additional observations from a re-analysis of the deposited data

How the results depend on the processing

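No transporter was called under any of the 17 alternatives, where the adjusted p of SLC1A5 was at least 0.288 and that of SLC1A4 at least 0.243. The number of genes called over the whole table ranged from 0 to 4 when 1 library was left out (4 without low 1, 1 without low 2), and the number of transporters lying higher from 3 to 5 (5 without high 2). Against 1129 genes with an unadjusted p below 0.05, leaving out high 2 gave 466, low 1 gave 1872, low 2 gave 632 and both low 2 and low 3 gave 631. The transporters at that level numbered 2, but 1 without high 2 or low 2, 0 without both low 2 and low 3, and 3 without high 1, with parity as a covariate or with the replicate block. Direction turned for SLC38A2, which ranged from -0.28 (without high 3) over 0.014 (without high 2) to 0.027 (without high 1) and was 0.043 with both low 2 and low 3 left out. It turned for SLC7A2 (-0.75 without high 3 to 0.74 without high 2, and 0.022 without low 1) and SLC3A2 (-0.23 without low 3 to 0.028 without low 2). Of the log2 ratios, SLC1A5 to SLC1A4 ranged from -0.26 (without low 3) to 0.051 (without low 2), with 0.031 without high 2, and SLC7A1 to SLC7A2 from -0.31 (without high 2) to 1.01 (without high 1). The cause was not tested. The same-numbered sows of the groups are different animals, and the main fit did not pair them. Their deviations from the group means correlated at -0.38, -0.16 and -0.36 across genes. Deviations sum to 0 within a group, which constrains these correlations, so they cannot decide whether same-numbered samples share anything. With the number as a replicate block 0 genes were called, 615 were at an unadjusted p under 0.05, and SLC1A1 had an unadjusted p of 0.0137 (limma, adjusted p = 0.931). With 3 sows per group the standard error of a transporter's log2 fold change had a median of 0.24, and depth is unknown.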

Other observations

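Some genes of the related lists took a value in 1 sow far from the other 5. These genes were chosen after their values were seen, and no test was run on them. RPS6KB2, a ribosomal protein S6 kinase of the mTORC1 pathway, was at 1540 in high 3 and between 448 and 496 in the other 5 sows. ODC1, ornithine decarboxylase, the first enzyme of polyamine synthesis, was at 10263 in low 2, with the others between 2731 and 4749. SLC7A9, the light chain of the cystine and basic amino acid exchanger, reached 5059 in low 2, the others lying between 714 and 2456, while its heavy chain SLC3A1 was at 160 in low 2 and led in high 1, at 222. GATM, which makes the creatine precursor guanidinoacetate from arginine, was at 1695 in low 3, with the others between 223 and 630.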
